A study of Mus musculus with 34 samples.

Results

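T cells labelled CD28 KO were compared between 72 h and 24 h of stimulation, a comparison of 4 of the 34 libraries in the series, 2 at each time. The libraries were chosen by their labels alone. CD28 is a costimulatory receptor engaged beside the antigen receptor, and its signal strengthens the growth, glycolysis and cytokine output that antigen recognition starts. A naive T cell that is activated leaves quiescence, enlarges, builds ribosomes, copies its DNA and divides, and then turns on the granzymes, cytokines and homing receptors of an effector cell. The series was titled for CD28, for ARS2 as partner of the nuclear cap-binding complex, and for how Pkm is spliced and glycolysis runs in CD8 T cells.

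All mice were C57BL/6 and aged 6 to 12 weeks. T cells of both the CD4 and the CD8 lineage were purified from spleen by negative selection. In every group at 24 h or 72 h they were cultured in RPMI and stimulated with antibodies to CD3 and CD28 together with recombinant IL-2. The groups were CD28 KO at 72 h and 24 h (2 libraries each), DKI at 72 h and 24 h (3 each), CD28 AYAA at 72 h and 24 h (3 each) and, as the control genotype, WT at 72 h and 24 h (2 each). Unstimulated WT (2 libraries) is used for the level of NK cell markers alone. AYAA names alanine changes in a cytoplasmic proline motif of CD28. Which part of Cd28 the KO lacks is not in the labels, nor is what DKI carries. Replicates are biological per the series' design text, so p-values measure a spread between biological samples. That spread was estimated over all 34 libraries and 13 groups of the series, not over the CD28 KO libraries alone.

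CD28 KO libraries held 27.3 and 23.8 M expected counts (M, the SI prefix mega) at 72 h and 15.7 and 18.9 M at 24 h, within a series range of 8.3 to 47.8 M. WT number 1 held 25.2 M at 72 h and 26.4 M at 24 h, while WT number 4 held 10.1 and 10.4 M and every DKI library held under 12 M. By Xist and Y-linked genes each CD28 KO time had 1 female and 1 male library, and all stimulated WT and DKI libraries were male. Both unstimulated WT libraries were female. Replicate CD28 KO libraries correlated across 9382 expressed genes at 0.9924 at 72 h and at 0.9903 at 24 h. The 10 T cell markers (Cd3d, Cd3e, Cd3g, Cd247, Trac, Cd4, Cd8a, Cd8b1, Cd5 and Thy1) summed to 2680 and 2720 CPM (counts scaled to equal library size) at 72 h and to 2350 and 2360 CPM at 24 h, with no member at 0. The 17 myeloid markers summed to 12.4 and 9.70 CPM at 72 h and to 23.3 and 12.4 CPM at 24 h. Cd14, C1qb and C1qc were at 0 in all 4 libraries, and 2 markers fell (Csf1r and Itgam), 1 of them without CD28 KO 24 h number 1 or 72 h number 2. Erythroid and platelet markers summed to 3.22 and 3.32 CPM at 72 h and to 6.50 and 12.6 CPM at 24 h, with Hba-a1, Hbb-bs and Hbb-bt at 0 at 72 h. Markers of B cells and of natural killer (NK) cells are given beside the genes they moved with.

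The Cd28 transcript itself was abundant at both times. Cd28 (chromosome 1) was at 212 and 214 CPM at 72 h, against 482 and 476 CPM at 24 h, in libraries labelled CD28 KO. It fell by 1.17 on the log2 scale (SE 0.18, edgeR's quasi-likelihood test with Benjamini-Hochberg adjustment over all genes, adjusted p = 9.33e-06). In WT the levels were 474 and 587 CPM at 72 h, against 387 and 411 CPM at 24 h, so at 24 h both KO libraries lay above both WT libraries. The gene count therefore does not check the label, and CD28 KO stands below for the libraries so labelled.

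A total of 8338 genes changed between 72 h and 24 h in CD28 KO, or 45.6% of the 18292 genes tested. Of these 4567 rose (25.0%) and 3771 fell (20.6%). Changes of at least 2-fold numbered 2271 up and 1545 down, and changes of at least 4-fold 913 up and 291 down, while the median over all genes was -0.06 on the log2 scale. Leaving out 1 CD28 KO library at a time left 5950 to 6876 genes. In WT 5393 genes changed over the same interval (29.5%), with 2834 up (15.5%) and 2559 down (14.0%).

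Genes of 32 processes were read against these shares. Together 696 of their members could be tested, and 424 rose and 94 fell. Every tested member of DNA replication, the respiratory chain and the proteasome rose, and so did 37 of 38 mitotic genes. Genes of naive and quiescent T cells went the other way, with 21 of 23 lower and 0 higher.

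**Figure D1:**
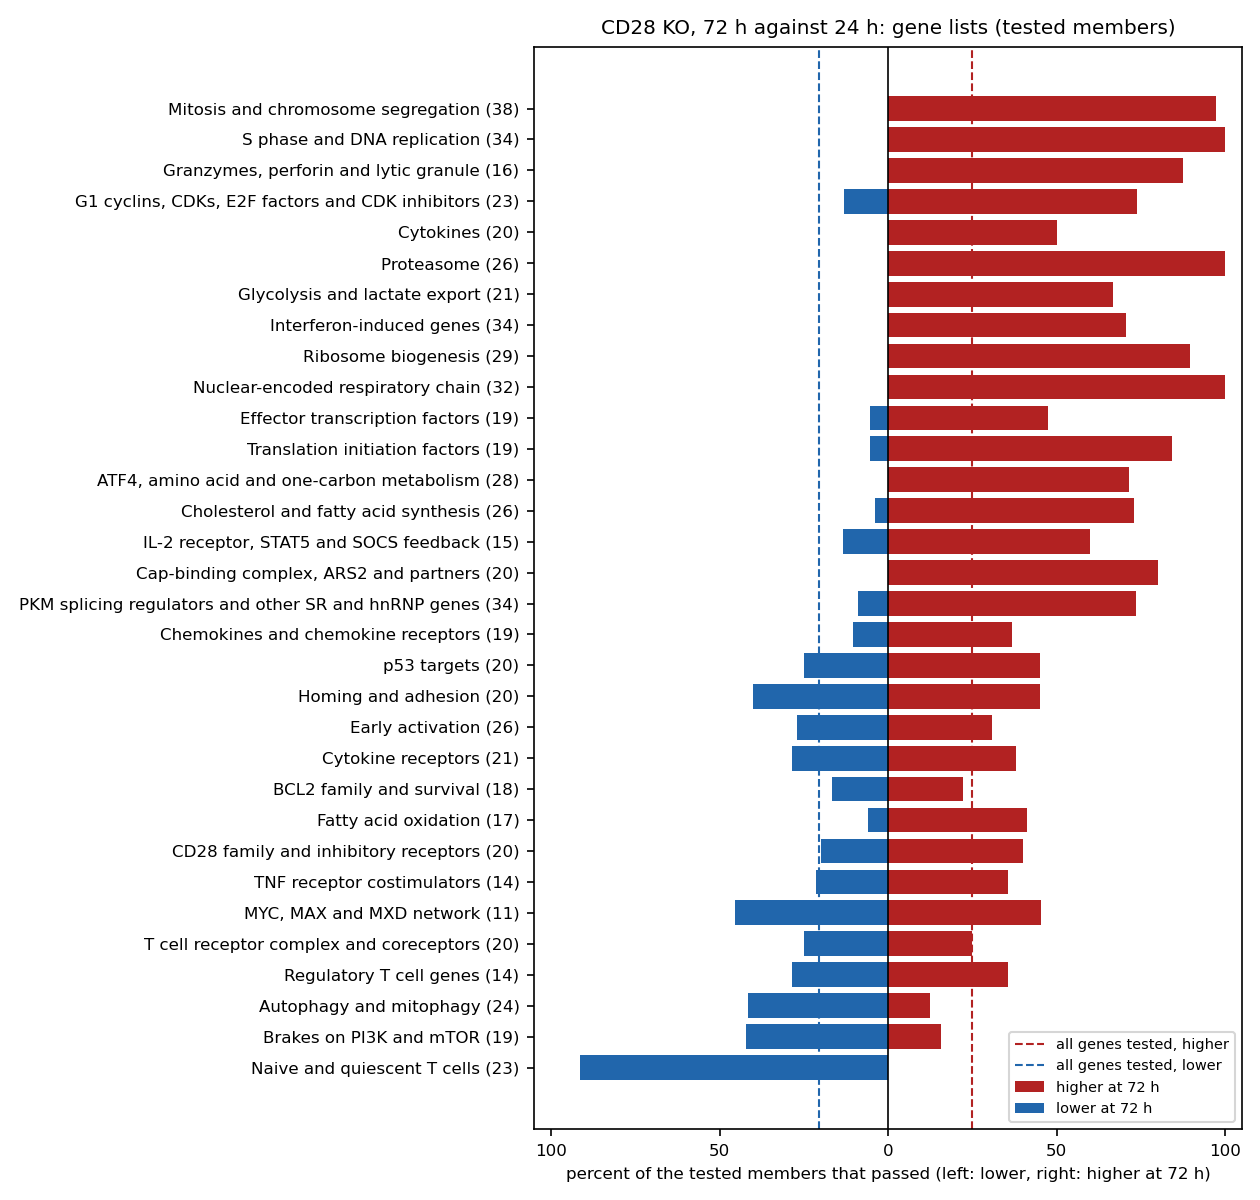
Percent of tested members of each process that were higher (right) or lower (left) at 72 h than at 24 h in CD28 KO, at an adjusted p under 0.05. Dashed lines mark the shares among all genes, 25.0% higher and 20.6% lower, which most growth and cell cycle lists exceed on the right and the naive list exceeds on the left.

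The promoters of the cell cycle genes show 2 sequence classes that went up together. DNA replication genes are classically driven by E2F factors, which bind sites of the form TTTNNCGC, and mitotic genes by the cell cycle homology region (CHR), TTTGAA, often with CCAAT boxes nearby. Among 30 mitotic genes with a RefSeq promoter window (250 bases before to 50 after the start, GRCm38.p6, both strands searched) 22 held TTTGAA, or 73.3%, against 20.2% of all 27025 genes with a window. Of 29 DNA replication genes with a window 4 held TTTGAA, or 13.8%. CCAAT was frequent in both classes, in 22 of the 30 mitotic genes, also 73.3%, and in 19 of the 29 DNA replication genes, or 65.5%, against 41.1% of all genes. It was not particular to them: other lists ranged from 10.0% (TNF receptor costimulators) to 88.9% (cholesterol and fatty acid synthesis). The naive list, which fell, had 63.2%. TTTNNCGC was in 13 of the 29 DNA replication genes, or 44.8%, against 5.9% of all genes, and in 2 of the 30 mitotic genes. The promoters of Ube2c, a mitotic ubiquitin-conjugating enzyme, and Cdc6, which loads the replicative helicase, are shown since each carries the motif of its class. Capitals mark the CHR and the CCAAT matches in Ube2c (chr2:164769679-164769978, plus strand), where 2 CCAAT matches on opposite strands overlap in 1 run. In Cdc6 (chr11:98907901-98908200, plus strand) they mark the E2F match. A match is a description of letters, and binding was not measured.
Ube2c: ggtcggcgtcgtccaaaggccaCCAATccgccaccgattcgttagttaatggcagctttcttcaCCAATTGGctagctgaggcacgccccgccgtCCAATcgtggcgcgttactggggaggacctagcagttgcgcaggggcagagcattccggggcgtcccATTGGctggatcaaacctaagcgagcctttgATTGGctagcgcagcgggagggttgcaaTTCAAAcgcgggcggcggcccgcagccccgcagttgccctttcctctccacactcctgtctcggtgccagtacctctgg
Cdc6: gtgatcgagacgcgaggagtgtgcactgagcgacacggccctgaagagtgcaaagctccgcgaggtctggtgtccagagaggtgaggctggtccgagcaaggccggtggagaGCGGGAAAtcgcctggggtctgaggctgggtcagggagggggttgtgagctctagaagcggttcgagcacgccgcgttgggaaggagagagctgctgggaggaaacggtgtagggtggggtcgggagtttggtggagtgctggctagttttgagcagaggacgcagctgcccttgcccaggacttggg

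DNA replication genes rose in full at 72 h in CD28 KO. All 34 members rose, with a median of 2.28 on the log2 scale against -0.06 over all genes. Rrm2, the regulatory subunit of ribonucleotide reductase, was at 325 and 284 CPM at 72 h, against 11.6 and 22.9 CPM at 24 h, a rise of 4.13 (SE 0.34, adjusted p = 6.73e-10). Both 72 h libraries were far above both 24 h libraries. Cdc45, a helicase component, was at 53.3 and 48.5 CPM at 72 h, against 4.08 and 6.71 CPM at 24 h. Mcm10, which helps to fire the origin, was at 77.7 and 69.9 CPM at 72 h, against 4.20 and 9.45 CPM at 24 h. Neither gene's times overlapped, and the log2 changes were 3.23 (SE 0.29) and 3.42 (SE 0.34). Pole, the leading-strand polymerase, and Tyms, which makes thymidylate, rose by 2.50 (SE 0.23) and 2.68 (SE 0.26). WT libraries were already high at 24 h: Cdc45 had 68.1 and 51.1 CPM at 72 h and 60.5 and 36.1 CPM at 24 h. Only 1 of the 34 genes rose in WT, namely Rrm2, and the change in CD28 KO exceeded that in WT for all 34.

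Mitotic genes rose further. Of 38 members 37 rose, with a median of 4.10 on the log2 scale, and Smc4, a condensin subunit, did not pass the test. Ccnb1, the mitotic cyclin B1, was at 132 and 112 CPM at 72 h, against 3.57 and 4.55 CPM at 24 h, a rise of 4.90 (SE 0.39, adjusted p = 3.73e-10). Libraries of one time lay close together and the times were far apart. Ube2c had 84.9 and 78.5 CPM at 72 h, against 2.47 and 3.18 CPM at 24 h. Top2a, which untangles sister chromatids, had 1120 and 991 CPM at 72 h, against 44.4 and 75.7 CPM at 24 h, and so stood among the most abundant of these transcripts at 72 h. The other members with the smallest p were Anln, Aurkb, Cenpe and Ncaph, which serve cytokinesis, chromosome attachment and condensation and rose by 4.29, 4.07, 4.37 and 3.50. Histone H1.5 (Hist1h1b), a replication-dependent linker histone, rose by 4.79 (SE 0.33) to 367 and 335 CPM at 72 h, against 11.2 and 14.2 CPM at 24 h, although counts of near-identical histone genes are uncertain. All 38 mitotic genes also rose in WT, with a smaller median of 1.86, and the change in CD28 KO exceeded that in WT for 33.

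Among regulators of the G1 to S step 17 of 23 rose and 3 fell. E2f8, an atypical E2F that represses the program late in S phase, had 91.0 and 91.1 CPM at 72 h, against 3.85 and 5.04 CPM at 24 h, a rise of 4.35 (SE 0.32, adjusted p = 1.48e-10). E2f7 and E2f2 rose by 3.95 (SE 0.31) and 2.75 (SE 0.25). The CDK inhibitors Cdkn1a (p21) and Cdkn2c (p18) rose as well, Cdkn1a to 30.8 and 29.0 CPM at 72 h, against 1.96 and 1.71 CPM at 24 h. The 3 genes that fell were Rb1, Rbl2 and Cdkn1b, all of which hold cells out of the cycle.

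**Figure D2:**
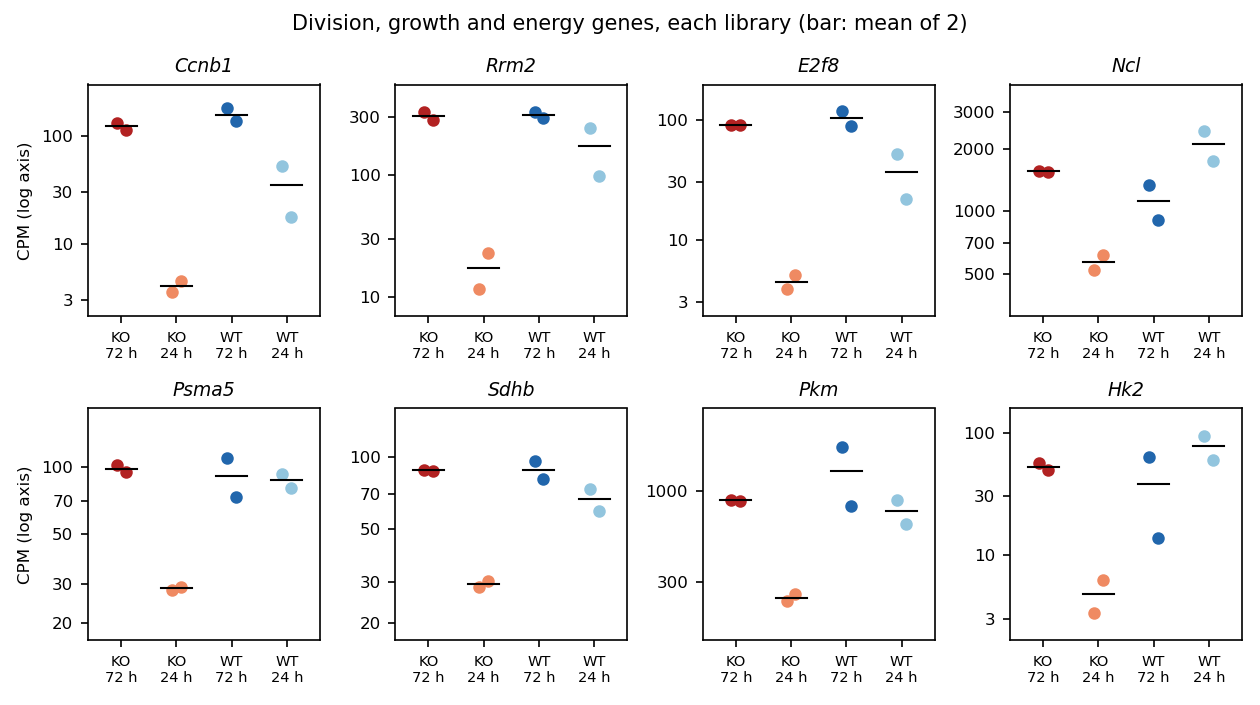
CPM on a log axis of 8 genes of the cell cycle, ribosome biogenesis, the proteasome, the respiratory chain and glycolysis in CD28 KO at 72 h and 24 h and in WT at 72 h and 24 h. Points are libraries and bars are means of 2. In every panel both CD28 KO 72 h points lie above both 24 h points, while Ncl in WT lies lower at 72 h.

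Genes that build ribosomes rose in CD28 KO and fell in WT. Of 29 ribosome biogenesis genes 26 rose in CD28 KO (median 1.10) and 0 fell, while in WT 0 rose and 27 fell (median -1.37). In DKI 22 rose and in CD28 AYAA 8, and 0 fell in either, as in CD28 KO. Ncl, nucleolin, which organises rRNA transcription and processing, had 1560 and 1550 CPM at 72 h, against 521 and 618 CPM at 24 h, in CD28 KO, and 1340 and 904 CPM at 72 h, against 2450 and 1750 CPM at 24 h, in WT. The CD28 KO times did not overlap, nor did those of WT, and they lay in opposite order. The change was 1.45 (SE 0.22, adjusted p = 1.13e-05) in CD28 KO and exceeded the WT change by 2.35 (SE 0.31, adjusted p = 5.49e-06). Npm1, the nucleolar chaperone nucleophosmin, had 1130 and 1050 CPM at 72 h, against 390 and 501 CPM at 24 h. Nhp2 and Rrs1, needed for rRNA modification and for assembly of the large subunit, rose by 1.60 (SE 0.29) and 1.38 (SE 0.27), and Wdr43 by 0.98 (SE 0.20). The change exceeded that in WT for 28 of the 29 genes.

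Translation initiation factors followed the same course. Of 19 members 16 rose in CD28 KO, and Eif4ebp2, which restrains cap-dependent initiation, fell. In WT 0 rose and 9 fell. Eif4a1, the RNA helicase of the cap-binding complex eIF4F, had 910 and 851 CPM at 72 h, against 295 and 353 CPM at 24 h, a rise of 1.44 (SE 0.23, adjusted p = 1.88e-05). The times were well apart. Eif3d, Eif3a and Eif3c, subunits of the ribosome-binding factor eIF3, rose by 0.92, 0.99 and 1.05, and Eif4h by 0.81.

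The proteasome and the respiratory chain rose in small even steps. All 26 proteasome genes rose, by 0.76 to 1.77 on the log2 scale, with a median of 1.26 in CD28 KO and -0.11 in WT. The change exceeded that in WT for all 26, and all 26 also rose in DKI and in CD28 AYAA. Psma5, an alpha-ring subunit, had 102 and 94.2 CPM at 72 h, against 28.1 and 29.2 CPM at 24 h. Libraries of one time differed little and the times were far apart. All 32 nuclear genes of the respiratory chain rose, by 0.34 to 1.72, with a median of 1.06 in CD28 KO and 0.14 in WT. In DKI 32 rose and in CD28 AYAA 30. Sdhb, the iron-sulfur subunit of succinate dehydrogenase, had 88.0 and 87.7 CPM at 72 h, against 28.4 and 30.3 CPM at 24 h, a rise of 1.58 (SE 0.18, adjusted p = 1.38e-07). Atp5c1 of ATP synthase, Uqcrfs1 of complex III and Cox5b and Cox6c of complex IV rose by 1.12, 1.03, 1.27 and 0.82.

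Glycolysis genes rose in part. Of 21 members 14 rose and 0 fell, with a median of 1.26 in CD28 KO and 0.60 in WT, where 8 rose. The CD28 KO change was higher than that in WT for 5 members and lower for 3, shares close to the 20.5% and 14.7% of all genes. The median excess over WT depended on the WT library, at 0.395 against WT number 1 alone and 1.24 against WT number 4 alone. Pkm, pyruvate kinase, had 892 and 876 CPM at 72 h, against 233 and 255 CPM at 24 h, in CD28 KO, and 1780 and 819 CPM at 72 h, against 887 and 643 CPM at 24 h, in WT. In CD28 KO the times were far apart, while in WT the 72 h libraries straddled the higher 24 h one. Pkm rose by 1.86 (SE 0.33, adjusted p = 5.61e-05) in CD28 KO, and the excess over the WT change, 1.09 (SE 0.45), did not pass (adjusted p = 0.0597). Gene counts do not separate the alternative exons of Pkm. Hk2, the inducible hexokinase, had 56.4 and 49.1 CPM at 72 h, against 3.34 and 6.22 CPM at 24 h, a rise of 3.45 (SE 0.67, adjusted p = 0.000164). Ldha, lactate dehydrogenase A, had 689 and 594 CPM at 72 h, against 179 and 208 CPM at 24 h, a rise of 1.73 (SE 0.34). Gapdh, Pgk1, the lactate transporter Slc16a1 and Hk1 rose by 2.16, 1.94, 1.84 and 0.72. The 7 members that did not pass were Slc2a3, Pfkl, Pfkm, Pfkfb3, Aldoc, Eno3 and Slc16a3.

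Srrt, which encodes ARS2, had 222 and 239 CPM at 72 h, against 154 and 148 CPM at 24 h. The times did not overlap, but the difference of 0.61 (SE 0.26) did not pass (adjusted p = 0.0519), and it passed with other tools as given under the processing alternatives. Of 20 genes listed under the cap-binding complex, ARS2 and partners 16 rose and 0 fell (median 0.64), and Srrt, Ncbp3, Thoc2 and Flad1 did not pass. Whether Flad1 is a partner of this complex was not checked. Ncbp2, the cap-binding subunit itself, had 52.5 and 46.3 CPM at 72 h, against 23.5 and 25.9 CPM at 24 h, a rise of 1.00 (SE 0.15, adjusted p = 8.34e-06). Alyref, an mRNA export adaptor that ties to the cap complex, rose by 2.01 (SE 0.27), and Nelfe, Eif4a3 and Kpna3 by 1.43, 1.23 and 1.34.

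Splicing regulators were called in number, with smaller changes. Of 34 SR, hnRNP and related genes 25 rose and 3 fell (Ptbp2, Srsf5 and Rbm4), with a median of 0.62 in CD28 KO and -0.18 in WT. The count of risen genes was 15 without CD28 KO 72 h number 1 and 16 without CD28 KO 24 h number 1. Ptbp1 and Hnrnpa1 are known to shift Pkm splicing toward the M2 exon. Ptbp1 had 446 and 450 CPM at 72 h, against 210 and 225 CPM at 24 h, and Hnrnpa1 had 657 and 616 CPM at 72 h, against 261 and 320 CPM at 24 h. Both were clearly apart between the times, with changes of 1.04 (SE 0.16, adjusted p = 1.12e-05) and 1.13 (SE 0.15, adjusted p = 1.15e-06). Nek2, a mitotic kinase also linked to Pkm splicing, rose by 4.42 (SE 0.31), and Srsf4 and Hnrnpc by 0.71 and 0.83.

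In the MYC network 5 of 11 genes rose and 5 fell. Myc had 141 and 134 CPM at 72 h, against 74.0 and 92.7 CPM at 24 h, in CD28 KO, and 110 and 62.3 CPM at 72 h, against 273 and 241 CPM at 24 h, in WT. The times were apart in both genotypes and in opposite order. The change in CD28 KO was 0.72 (SE 0.28, adjusted p = 0.0372) and exceeded that in WT by 2.29 (SE 0.40, adjusted p = 8.78e-05). The call on the CD28 KO change was lost without any 1 of the 4 libraries, with adjusted p of 0.0521 to 0.225. Mycn, a MYC paralog, had 14.4 and 14.9 CPM at 72 h, against 0.0575 and 0.783 CPM at 24 h, and Mxd3, a MAX partner of dividing cells, rose by 1.95 (SE 0.23). Mga, Mxi1 and Mlxip, which compete in or repress the network or sense glucose, fell by 0.42, 1.05 and 0.34. The list count is sensitive to single libraries: risen genes numbered 2 without CD28 KO 72 h number 1 or 24 h number 1, and 3 without either of the others or with protein-coding genes alone, and fallen genes numbered 3 without either number 1.

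Lipid synthesis rose in both genotypes. Of 26 cholesterol and fatty acid synthesis genes 19 rose in CD28 KO (median 0.88), and 20 in WT (median 0.82). Sqle, squalene epoxidase of cholesterol synthesis, had 76.3 and 81.3 CPM at 72 h, against 23.6 and 24.5 CPM at 24 h, a rise of 1.71 (SE 0.24, adjusted p = 4.3e-06). The times were far apart. Mvd and Cyp51 of the same route rose by 1.43 and 1.43. Acss2, which makes acetyl-CoA from acetate, was the 1 member that fell, by 1.39 (SE 0.18), and had 24.2 and 27.3 CPM at 72 h, against 72.0 and 62.6 CPM at 24 h. Of 17 fatty acid oxidation genes 7 rose and Acadm, the medium-chain dehydrogenase, fell by 0.57 (SE 0.09). Acadl, the long-chain dehydrogenase, had 38.1 and 35.3 CPM at 72 h, against 5.64 and 7.44 CPM at 24 h.

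Amino acid and one-carbon genes rose in 20 of 28 cases, with a median of 0.96 in CD28 KO and 0.08 in WT. The count was 12 without CD28 KO 24 h number 1. Mthfd2, the mitochondrial folate enzyme of proliferating cells, had 81.6 and 72.6 CPM at 72 h, against 16.8 and 21.4 CPM at 24 h, a rise of 2.01 (SE 0.25, adjusted p = 5.74e-07). The times were far apart. Phgdh and Psat1 of serine synthesis rose by 2.06 (SE 0.30) and 2.33 (SE 0.37), and Got1 by 1.14 (SE 0.19).

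The cystine transporter subunit Slc7a11 (xCT) came next after Gzmb among the largest rises of abundant genes. It had 63.9 and 61.8 CPM at 72 h, against 0.978 and 0.930 CPM at 24 h, in CD28 KO, a rise of 6.04 (SE 0.79, adjusted p = 1.20e-06). In WT it stayed low in all 4 libraries, with 1.59 and 0.313 CPM at 72 h, against 0.829 and 0.553 CPM at 24 h. Srxn1, sulfiredoxin, which repairs oxidised peroxiredoxins and is a classic target of the oxidative stress factor NRF2, had 45.4 and 47.5 CPM at 72 h, against 1.15 and 1.42 CPM at 24 h, in CD28 KO, and 6.15 and 6.16 CPM at 72 h, against 6.92 and 5.53 CPM at 24 h, in WT. The CD28 KO times were far apart and those of WT overlapped. The excess over the WT change was 5.42 (SE 1.25, adjusted p = 0.00126) for Slc7a11 and 5.20 (SE 0.58, adjusted p = 7.24e-07) for Srxn1. Without WT 24 h number 1 the excess for Slc7a11 was 4.96 and did not pass (adjusted p = 0.0858).

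Cytotoxic granule genes rose. Of 16 tested members 14 rose and 0 fell (median 1.86), and 9 rose without CD28 KO 72 h number 1. In WT 8 rose and 0 fell (median 0.74). In DKI 12 rose and 1 fell, and in CD28 AYAA 13 rose and 1 fell. The change in CD28 KO exceeded that in WT for 3 of the 16, against 20.5% of all genes. Gzmb, granzyme B, had 2040 and 1680 CPM at 72 h, against 18.4 and 34.3 CPM at 24 h, in CD28 KO, and 737 and 498 CPM at 72 h, against 371 and 216 CPM at 24 h, in WT. The 2 CD28 KO libraries at 72 h were the highest of the 8 and those at 24 h the lowest. The rise of 6.14 (SE 0.80, adjusted p = 1.19e-06) was the largest among abundant genes, and it exceeded that in WT by 5.07 (SE 0.96, adjusted p = 0.000211). Gzma, granzyme A, had 79.6 and 56.6 CPM at 72 h, against 2.13 and 1.37 CPM at 24 h. Nkg7, which serves granule exocytosis, had 166 and 156 CPM at 72 h, against 20.4 and 33.0 CPM at 24 h. Each was apart between the times, and the log2 changes were 5.29 (SE 0.67) and 2.59 (SE 0.33). Stx11 and Rab27a, needed for granule docking and fusion, rose by 2.83 and 0.86.

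NK cells share many of these genes, and NK markers in sum, though not each of them, moved in the same direction. The 10 NK markers summed to 55.3 and 74.5 CPM at 72 h and to 11.7 and 19.7 CPM at 24 h in CD28 KO, to 13.1 and 9.65 CPM at 72 h and 12.0 and 10.7 CPM at 24 h in WT, and to 133 and 128 CPM in unstimulated WT. Mitochondrial rRNA made up 17.2 and 17.5% of the counts in unstimulated WT, which lowers its sums. Of the 10 markers 5 rose in CD28 KO (Klrb1c, Fcer1g, Klre1, Klrb1b and Klra7), and 3 without CD28 KO 24 h number 1 or 72 h number 2. The other 5 did not pass, and log2 changes over the 10 markers ran from -2.72 to 3.12. With CD28 KO counts thinned to their lowest total 1 marker fell. Klrb1c, which encodes NK1.1, had 13.9 and 15.6 CPM at 72 h, against 2.13 and 1.66 CPM at 24 h, a rise of 2.96 (SE 0.60, adjusted p = 0.000257). Ncr1, the receptor NKp46 that defines NK cells, had 0.395 and 2.13 CPM at 72 h and 0.805 and 0.343 CPM at 24 h, and Klra4 was at 0 in CD28 KO 72 h number 2. In bulk samples a larger share of cells of one type and more RNA per cell cannot be told apart. The part of NK cells in the granzyme result was not tested.

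Cytokine genes rose in CD28 KO where they fell in WT. Of 20 tested members 10 rose and 0 fell in CD28 KO (median 1.6), whereas 1 rose and 10 fell in WT (median -1.69). In DKI 10 rose and in CD28 AYAA 8, and 0 fell in either. Ifng, interferon-gamma, had 22.2 and 14.7 CPM at 72 h, against 0.518 and 0.783 CPM at 24 h, in CD28 KO, and 1.33 and 3.23 CPM at 72 h, against 51.6 and 53.7 CPM at 24 h, in WT. In CD28 KO the later libraries were the higher ones, and in WT the earlier ones. The change was 4.80 (SE 0.91, adjusted p = 0.000129) and exceeded that in WT by 9.47 (SE 1.22, adjusted p = 3.83e-06). Lif, a cytokine of the IL-6 family, had 92.7 and 66.4 CPM at 72 h, against 1.04 and 2.2 CPM at 24 h, in CD28 KO, and 22.6 and 2.09 CPM at 72 h, against 134 and 79.1 CPM at 24 h, in WT. Lta, lymphotoxin alpha, had 79.6 and 73.1 CPM at 72 h, against 13.1 and 15.9 CPM at 24 h, in CD28 KO, and 12.6 and 4.38 CPM at 72 h, against 137 and 74.6 CPM at 24 h, in WT. For both genes the order of the times was opposite in the 2 genotypes, and the excess over the WT change was 8.59 (SE 1.09) for Lif and 5.95 (SE 0.58) for Lta. Tnfsf14 (LIGHT), Tnfsf11 (RANKL) and Tgfb1 rose by 2.54, 2.26 and 0.80. Il2 was near 0, with 0.0719 and 0.041 CPM at 72 h and 0.115 and 0.049 CPM at 24 h, too few reads to tell the times apart.

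Of 19 tested chemokines and their receptors 7 rose and 2 fell, against 25.0% and 20.6% of all genes. Ccr2, which guides effector cells to inflamed tissue, had 196 and 166 CPM at 72 h, against 4.26 and 12.1 CPM at 24 h, a rise of 4.46 (SE 0.69, adjusted p = 1.24e-05). Its times were far apart. Cxcr3, another receptor of effector cells, rose by 2.02 (SE 0.32). Ccl3, an inflammatory chemokine, had 18.1 and 16.1 CPM at 72 h, against 0.863 and 1.13 CPM at 24 h, in CD28 KO, and 0.818 and 3.44 CPM at 72 h, against 29.5 and 36.0 CPM at 24 h, in WT. The 2 receptors that fell, Ccr7 and Cxcr5, direct cells within lymphoid organs, and Ccr7 had 89.5 and 112 CPM at 72 h, against 238 and 209 CPM at 24 h.

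**Figure D3:**
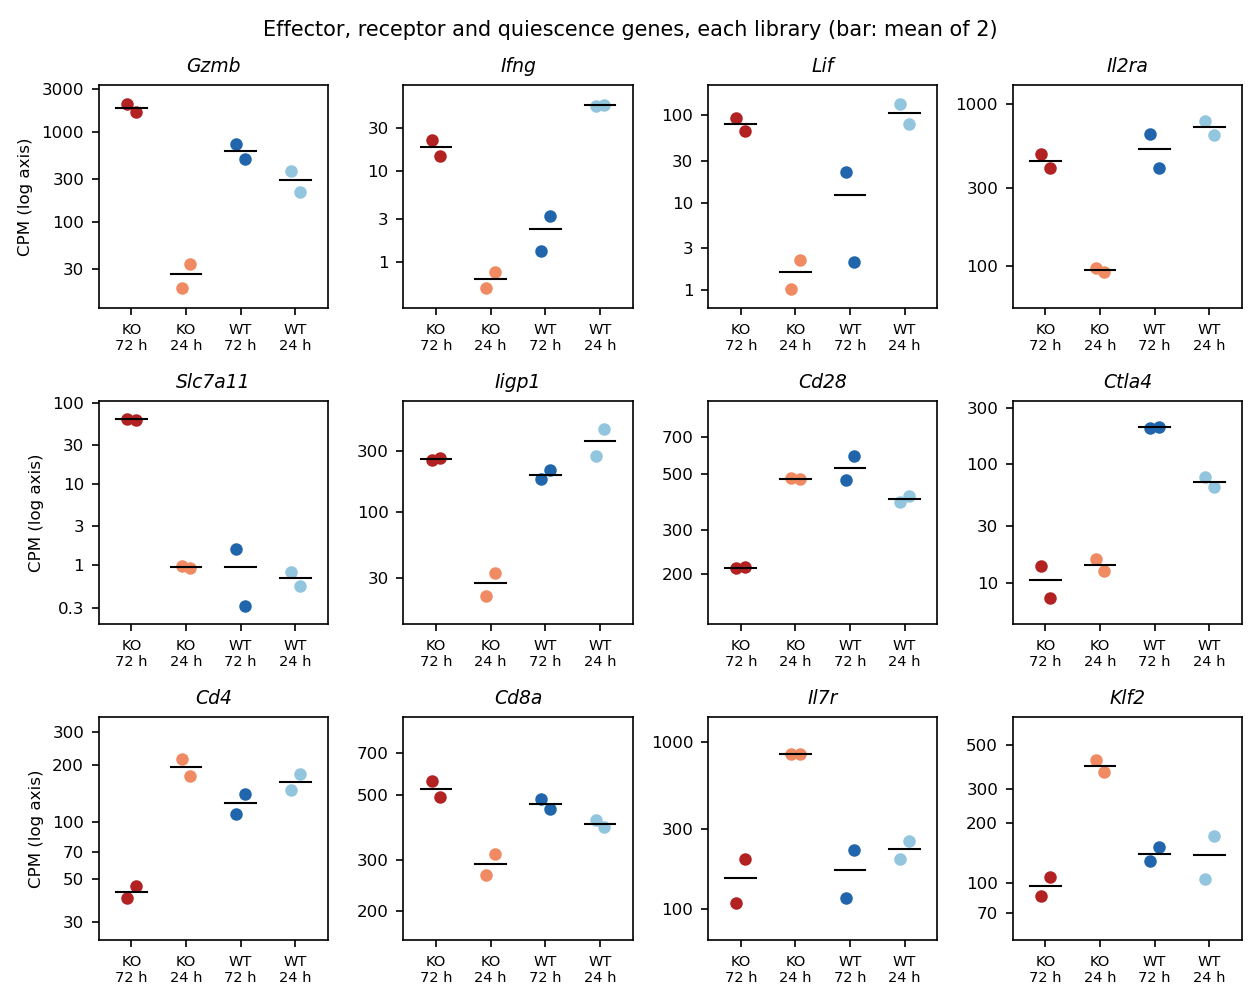
CPM on a log axis of 12 genes of effector function, costimulation, lineage and quiescence in CD28 KO at 72 h and 24 h and in WT at 72 h and 24 h. Points are libraries and bars are means of 2. Gzmb, Ifng, Lif and Slc7a11 show the widest gaps between the CD28 KO times, and Ifng and Lif run the other way in WT.

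Effector transcription factors rose in 9 of 19 cases and Tox fell, and 15 rose in a fit to only the groups compared. Tbx21, which encodes T-bet, the factor of type 1 effector cells, had 33.9 and 28.8 CPM at 72 h, against 3.97 and 7.59 CPM at 24 h, in CD28 KO, and 35.3 and 38.0 CPM at 72 h, against 87.9 and 88.3 CPM at 24 h, in WT. At 72 h CD28 KO lay slightly below WT, and at 24 h it was far lower. The rise was 2.43 (SE 0.29, adjusted p = 3.12e-07). Eomes, its relative in CD8 cells, had 312 and 391 CPM at 72 h, against 32.3 and 71.0 CPM at 24 h. Bhlhe40, which supports cytokine output, rose by 3.30 (SE 0.37), Hif1a by 1.07 (SE 0.16) and Runx3, which fixes the CD8 program, by 0.72 (SE 0.10).

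Receptors for IL-2 rose. Of 15 genes of the IL-2 receptor, STAT5 and SOCS feedback 9 rose and Jak1 and Stat5b fell. Il2ra, the alpha chain that gives high affinity, had 487 and 400 CPM at 72 h, against 96.9 and 91.6 CPM at 24 h, in CD28 KO, and 648 and 403 CPM at 72 h, against 786 and 644 CPM at 24 h, in WT. In CD28 KO the times were far apart, and in WT they overlapped. The rise was 2.23 (SE 0.27, adjusted p = 3.26e-07). Il2rb, the signalling beta chain, had 658 and 622 CPM at 72 h, against 119 and 152 CPM at 24 h, and rose by 2.24 (SE 0.19). Socs1 and Socs2, feedback inhibitors, rose by 1.49 and 2.47, and the survival gene Bcl2l1 (BCL-XL) by 2.29 (SE 0.28).

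Of 21 receptors for other cytokines 8 rose and 6 fell, against 25.0% and 20.6% of all genes. Il12rb2, the inducible IL-12 receptor chain, had 105 and 80.9 CPM at 72 h, against 2.19 and 5.34 CPM at 24 h, in CD28 KO, and 159 and 174 CPM at 72 h, against 101 and 154 CPM at 24 h, in WT. The rise of 4.60 (SE 0.36, adjusted p = 3.11e-10) joined one of 3.90 (SE 0.32) for its partner Il12rb1. Il15ra, Il18rap and Ifnar2 rose by 1.88, 2.32 and 1.03. Il7r, the IL-7 receptor that keeps naive cells alive, had 109 and 198 CPM at 72 h, against 842 and 849 CPM at 24 h, in CD28 KO, and 116 and 227 CPM at 72 h, against 199 and 257 CPM at 24 h, in WT. It fell by 2.46 (SE 0.41, adjusted p = 3.30e-05), and in CD28 KO at 24 h it was higher than in the other libraries of CD28 KO and WT. Il6ra and Il6st, which form the IL-6 receptor, fell by 2.08 and 1.47, and Il27ra, Ifngr2 and Tgfbr2 fell by 0.71, 0.94 and 0.81.

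Early activation genes were called in shares close to those of all genes, 25.0% higher and 20.6% lower. Of 26 members 8 rose and 7 fell (median 0.36), against 2 that rose and 15 that fell in WT (median -0.81). The fallen genes numbered 2 without CD28 KO 24 h number 1 and 3 without CD28 KO 72 h number 2. Irf8, which is induced by antigen in CD8 cells, had 112 and 86.1 CPM at 72 h, against 12.7 and 13.6 CPM at 24 h, in CD28 KO, and 60.3 and 44.2 CPM at 72 h, against 230 and 182 CPM at 24 h, in WT. The order of the times was opposite in the 2 genotypes, and the change was 2.91 (SE 0.32) in CD28 KO. Tfrc, the transferrin receptor, rose by 2.51 (SE 0.41) and Jun by 1.69 (SE 0.29). Egr1, an immediate early gene, fell by 1.90 (SE 0.27) and had 26.8 and 20.4 CPM at 72 h, against 95.6 and 80.2 CPM at 24 h.

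In the CD28 family and its relatives 8 of 20 genes rose and 4 fell, against 25.0% and 20.6% of all genes. Ctla4, the inhibitory rival of CD28, was low and overlapped between the times in CD28 KO, with 13.8 and 7.49 CPM at 72 h and 15.8 and 12.5 CPM at 24 h. In WT it had 202 and 207 CPM at 72 h, against 78.6 and 64.2 CPM at 24 h. The change in CD28 KO did not pass (-0.40, SE 0.46, adjusted p = 0.496), and it lay below that in WT by 1.91 (an interaction of -1.91, SE 0.63, adjusted p = 0.0188). Tigit, an inhibitory receptor, had 10.1 and 6.27 CPM at 72 h, against 0.863 and 1.86 CPM at 24 h, and Cd244a rose by 3.19 (SE 0.57). Cd5 and Vsir, a brake on T cell receptor signalling and a checkpoint of naive cells, fell by 1.44 (SE 0.16) and 1.22 (SE 0.16). The exhaustion-linked Pdcd1 and Lag3 and the costimulator Icos did not pass.

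TNF receptor costimulators rose in 5 of 14 tested cases and fell in 3, against 25.0% and 20.6% of all genes. Tnfrsf9, which encodes 4-1BB, had 114 and 103 CPM at 72 h, against 14.2 and 13.8 CPM at 24 h, in CD28 KO, and 40.5 and 34.2 CPM at 72 h, against 73.0 and 75.9 CPM at 24 h, in WT. The rise of 2.95 (SE 0.42, adjusted p = 3.51e-06) stood beside one of 4.33 (SE 0.69) for Tnfrsf8, which encodes CD30. Tnfrsf1b rose by 0.79, and Tnfrsf26 and Tnfrsf25 fell by 1.18 and 1.49.

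Naive and quiescence genes fell as a body. Of 23 members 21 fell and 0 rose in CD28 KO (median -1.37), and Pdlim4 and Igfbp4 did not pass, whereas in WT 5 rose and 4 fell (median 0.14). In DKI and in CD28 AYAA 21 of the 23 fell too and 0 rose. Klf2, a factor of quiescence and recirculation, had 85.3 and 107 CPM at 72 h, against 418 and 363 CPM at 24 h, in CD28 KO, and 129 and 151 CPM at 72 h, against 104 and 173 CPM at 24 h, in WT. Its times were far apart in CD28 KO and overlapped in WT, and it fell by 2.02 (SE 0.31, adjusted p = 1.24e-05). Lef1, a TCF family factor of naive cells, had 301 and 357 CPM at 72 h, against 928 and 793 CPM at 24 h. Bach2, a repressor of effector genes, had 149 and 141 CPM at 72 h, against 398 and 350 CPM at 24 h. Tob1, an antiproliferative gene, fell by 1.83 (SE 0.18) in CD28 KO and rose in WT by 1.08 (adjusted p = 7.34e-05). The change in CD28 KO lay below that in WT for 19 of the 23 genes.

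The brakes on PI3K and mTOR followed, with 8 of 19 lower and 3 higher, against 2 lower and 6 higher in WT. DKI had 11 lower and 3 higher, and CD28 AYAA 10 lower and 3 higher. Sesn1, sestrin 1, which restrains mTORC1 when amino acids are scarce, had 45.9 and 51.2 CPM at 72 h, against 140 and 130 CPM at 24 h, in CD28 KO, and 85.3 and 99.3 CPM at 72 h, against 36.4 and 41.2 CPM at 24 h, in WT. Both pairs were far apart in opposite order, with a CD28 KO change of -1.48 (SE 0.23, adjusted p = 1.13e-05). Tsc1 and Irs2 fell by 0.71 and 1.38, and Fnip2 rose by 2.90. Autophagy genes were lower in 10 of 24 cases and higher in 3, against 1 lower and 11 higher in WT. DKI had 12 lower and 4 higher, and CD28 AYAA 11 lower and 5 higher. Bnip3l, a mitophagy receptor, fell by 1.09 (SE 0.17), as did Ulk2 by 0.79 and Atg14 by 1.05, while Gabarapl1 and Atg3, of the conjugation step, rose by 1.66 and 0.72.

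Among 18 tested genes of the BCL2 family 4 rose and 3 fell, shares close to the 25.0% higher and 20.6% lower of all genes. Bmf and Bbc3 (PUMA), which trigger cell death, had low levels and opposite courses in the genotypes. Bbc3 had 3.31 and 4.01 CPM at 72 h, against 12.3 and 9.50 CPM at 24 h, in CD28 KO, and 11.3 and 15.5 CPM at 72 h, against 2.85 and 2.95 CPM at 24 h, in WT. Bak1, a pore former, had 102 and 104 CPM at 72 h, against 23.0 and 26.4 CPM at 24 h, and rose by 2.06 (SE 0.17), while its relative Bax rose by 0.55 (SE 0.13). Of 20 p53 targets 9 rose and 5 fell. Cdkn1a, Ccng1 and Sesn2 were among those that rose, and Sesn1 and Btg2 among those that fell.

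Cd4 and Cd8a moved in opposite directions. Cd4, the coreceptor of helper cells, had 40.0 and 46.2 CPM at 72 h, against 216 and 175 CPM at 24 h, in CD28 KO, and 111 and 140 CPM at 72 h, against 147 and 180 CPM at 24 h, in WT. It was 4.53-fold lower at 72 h in CD28 KO, a change of -2.18 (SE 0.34, adjusted p = 1.42e-05), and lay below the WT change by 1.79 (an interaction of -1.79, SE 0.47, adjusted p = 0.00376). Cd8a had 559 and 492 CPM at 72 h, against 266 and 315 CPM at 24 h, in CD28 KO, and 487 and 449 CPM at 72 h, against 410 and 388 CPM at 24 h, in WT. Both 72 h libraries were the higher ones in each genotype, and the CD28 KO change was 0.85 (SE 0.15, adjusted p = 7.47e-05). Cd8b1 rose by 0.47 (SE 0.13) and Thy1 by 1.49 (SE 0.20). Whether the shares of the 2 lineages or their RNA per cell moved cannot be told apart here.

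Of 20 T cell receptor complex genes 5 rose and 5 fell, shares close to the 25.0% higher and 20.6% lower of all genes. Risen genes numbered 2 without CD28 KO 72 h number 1 or 24 h number 1 and 3 without either of the others, and fallen genes numbered 3 without any library but 72 h number 2. With no filter on low counts 3 rose and 3 fell, and 3 rose with RLE size factors or with protein-coding genes alone. Plcg1 and Cd6 fell by 0.66 and 0.93, and Zap70 rose by 0.40. In regulatory T cell genes 5 of 14 rose and 4 fell, with 2 lower without CD28 KO 72 h number 2, and Foxp3, which defines that lineage, did not pass. Lrrc32 (GARP) and Entpd1 (CD39) were the largest there, at 98.8 and 81.1 CPM at 72 h, against 14.8 and 14.0 CPM at 24 h, and at 18.5 and 15.8 CPM at 72 h, against 1.04 and 1.27 CPM at 24 h.

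Homing and adhesion genes rose in 9 of 20 cases and fell in 8. Ly6a, which encodes Sca-1 and is induced by interferon, had 373 and 327 CPM at 72 h, against 25.9 and 38.6 CPM at 24 h, in CD28 KO, and 513 and 489 CPM at 72 h, against 408 and 619 CPM at 24 h, in WT. The rise was 3.44 (SE 0.27, adjusted p = 3.21e-10). Cd44, a marker of antigen-experienced cells, had 84.1 and 87.2 CPM at 72 h, against 24.0 and 32.7 CPM at 24 h. The integrin chains Itgal and Itgb1 rose by 1.14 and 1.65, and Icam1 by 1.19.

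Interferon-induced genes rose as well. Of 34 members 24 rose and 0 fell in CD28 KO (median 1.25), against 16 that rose and 6 that fell in WT (median 0.85). The promoter of Gbp2, a guanylate-binding protein, is shown as an example with an interferon-stimulated response element (ISRE), searched as GAAA followed 2 bases later by GAAA and marked in capitals on the minus strand 59 to 50 bases before the start (chr3:142620413-142620712, plus strand gene, RefSeq, GRCm38.p6). A match was in 13 of 23 list members with a window, or 56.5%, against 4.0% of all genes, and the gamma-activated site TTCNNNGAA was in 7 of 23, or 30.4%, against 9.6%, searched on both strands. The gamma-activated site was not particular to this list. Other lists ranged from 0.0% (BCL2 family) to 60.0% (TNF receptor costimulators), with 35.3% for cytokine receptors.
Gbp2: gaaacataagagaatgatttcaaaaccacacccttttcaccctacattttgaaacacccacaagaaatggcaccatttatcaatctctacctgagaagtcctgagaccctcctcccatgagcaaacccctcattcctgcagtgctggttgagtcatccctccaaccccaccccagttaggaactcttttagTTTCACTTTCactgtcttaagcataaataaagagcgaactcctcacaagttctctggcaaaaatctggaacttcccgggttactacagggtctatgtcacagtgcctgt

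Gbp2 had 522 and 533 CPM at 72 h, against 83.9 and 120 CPM at 24 h, in CD28 KO, and 485 and 574 CPM at 72 h, against 1070 and 1750 CPM at 24 h, in WT. At 72 h the genotypes overlapped, and at 24 h CD28 KO was far below WT. The rise was 2.37 (SE 0.25, adjusted p = 3.40e-08). Iigp1, an immunity-related GTPase, had 253 and 261 CPM at 72 h, against 22.0 and 33.0 CPM at 24 h, in CD28 KO, and 179 and 211 CPM at 72 h, against 272 and 444 CPM at 24 h, in WT. Psmb8, an immunoproteasome subunit, had 330 and 316 CPM at 72 h, against 111 and 136 CPM at 24 h, a rise of 1.39 (SE 0.12). Gbp6, Gbp3 and Igtp rose by 2.31, 2.00 and 1.54.

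Beyond the lists, the naming rule took the 10 largest changes per direction among genes that averaged 3 or more on the log2 CPM scale and whose times do not overlap. Up, these included Gzmb, Slc7a11, Lif, Gzma, Srxn1, Ccnb1, Ube2c, Hist1h1b and Adam8. Adam8, a surface metalloprotease of leukocytes, had 67.3 and 74.1 CPM at 72 h, against 3.11 and 2.11 CPM at 24 h, a rise of 4.77 (SE 0.62, adjusted p = 1.07e-06). Down, they were Xkrx, St8sia6, Wfikkn2, Il7r, H2-Ob, Gprc5b, Cpm, Il1rl2, Tbc1d4 and Ephx1, which fell by 2.21 to 3.06. St8sia6, a sialyltransferase, had 16.3 and 26.3 CPM at 72 h, against 188 and 160 CPM at 24 h, in CD28 KO, and 5.85 and 18.6 CPM at 72 h, against 33.4 and 52.3 CPM at 24 h, in WT. Wfikkn2, which encodes an inhibitor of TGF-beta family ligands, had 5.71 and 5.94 CPM at 72 h, against 36.0 and 35.0 CPM at 24 h. Tbc1d4, which governs glucose transporter traffic, had 10.4 and 14.2 CPM at 72 h, against 63.5 and 51.8 CPM at 24 h.

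H2-Ob, a chaperone of antigen presentation that B cells also express, had 15.3 and 14.2 CPM at 72 h, against 78.3 and 78.2 CPM at 24 h. B cell markers moved the same way: the 15 markers summed to 255 and 213 CPM at 72 h and to 502 and 371 CPM at 24 h, with none at 0. Ighm made up most of that sum, with 183 and 184 CPM at 72 h and 302 and 233 CPM at 24 h. Of the 15 markers 5 fell (Cr2, Cd79b, Ighd, Cd79a and Ebf1), and the count was 2 without CD28 KO 24 h number 1 and 1 without CD28 KO 72 h number 2. It was 7 without CD28 KO 72 h number 1, 10 with no filter on low counts and 11 in a fit to only the groups compared. Their part in the change of H2-Ob was not tested.

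The change over time differed between CD28 KO and WT for 6455 genes (35.3%), with 3759 changes higher in CD28 KO (20.5%) and 2696 lower (14.7%). Genes that rose in both genotypes numbered 1244 and genes that fell in both 610. Another 666 rose in CD28 KO and fell in WT, and 521 fell in CD28 KO and rose in WT. The WT libraries differ in depth, and WT number 1 shares the higher depth of the CD28 KO libraries: set against WT number 1 alone, 4992 genes differed, 2954 of them with a higher change in CD28 KO, and set against WT number 4 alone 4916 did, 2734 of them with a higher change, where the lone WT library of each time is assumed to vary like the other groups. Against WT number 1 alone the change was higher in CD28 KO for 28 of 29 ribosome biogenesis genes, all 34 DNA replication genes, 35 of 38 mitotic genes and 25 of 26 proteasome genes, and lower for 14 of 23 naive genes. Against WT number 4 alone these counts were 28, 34, 25, 26 and 17.

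**Figure D4:**
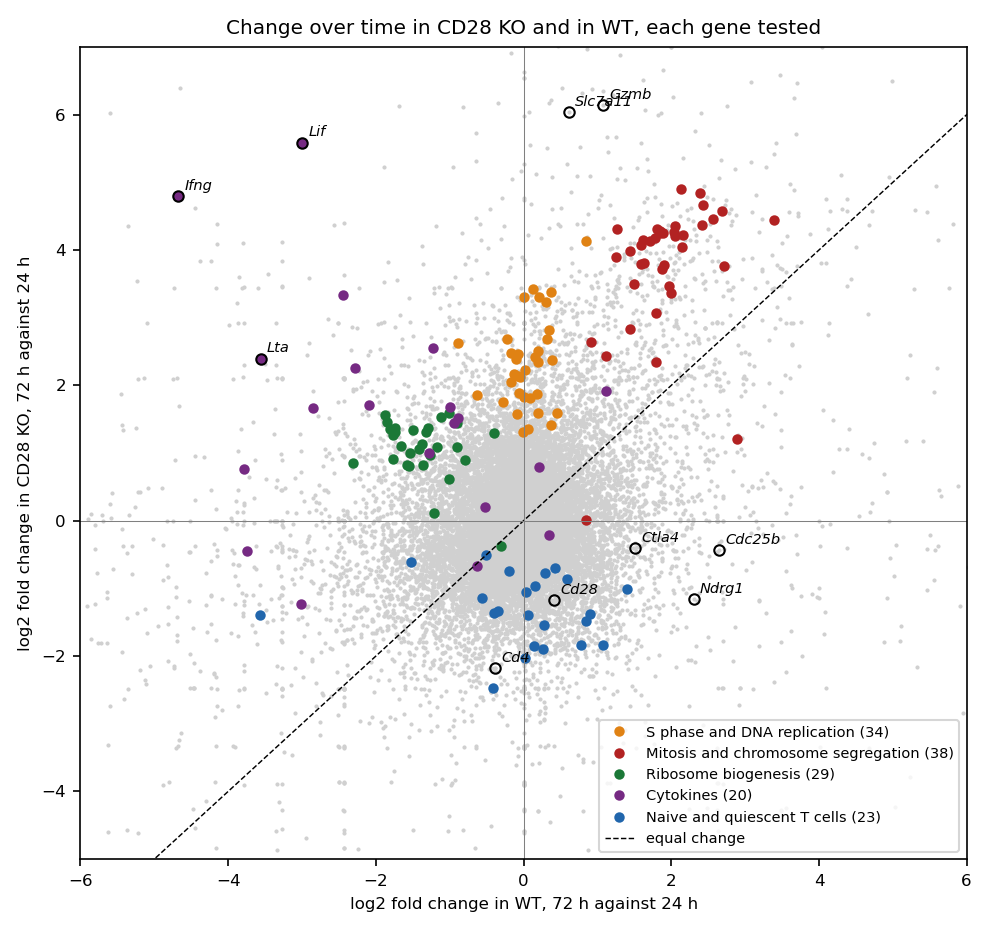
Log2 change between 72 h and 24 h in CD28 KO (vertical axis) against that in WT (horizontal axis), 1 point per gene, with 110 genes outside the axes. Coloured points mark genes of selected lists, and most ribosome biogenesis genes sit above 0 for CD28 KO and below 0 for WT.

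Among genes that averaged 3 or more on the log2 CPM scale in CD28 KO, which leaves out Ifng, the largest excess over WT was in Lif, Lta, Slc7a11, Srxn1 and Gzmb, all given above. On the other side were Cnga1, Cd101, Ndrg1, Bambi-ps1 and Frat2. Ndrg1, a stress-responsive gene, had 12.3 and 10.4 CPM at 72 h, against 30.3 and 20.4 CPM at 24 h, in CD28 KO, and 73.6 and 21.2 CPM at 72 h, against 8.39 and 11.4 CPM at 24 h, in WT. Its times were apart in both genotypes and in opposite order, with an interaction of -3.46 (SE 0.55, adjusted p = 3.16e-05). The WT libraries at 72 h lay far apart for this gene, and the Ndrg1 interaction was -4.28 against WT number 1 alone and -2.11 against WT number 4 alone. Cd101, an inhibitory surface receptor, had 3.45 and 4.55 CPM at 72 h, against 18.2 and 15.1 CPM at 24 h, in CD28 KO, and 13.7 and 15.0 CPM at 72 h, against 6.56 and 3.78 CPM at 24 h, in WT. Cnga1 and Frat2, a cyclic nucleotide-gated channel subunit and a regulator of WNT signalling, had interactions of -3.72 (SE 0.41) and -3.35 (SE 0.47).

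Fewer genes passed the test of a different change against DKI or CD28 AYAA than against WT. The same CD28 KO libraries enter each of these comparisons, so they are not independent. DKI changed 8679 genes over the interval (47.4%) and CD28 AYAA 8300 (45.4%). The change in CD28 KO differed from that in DKI for 35 genes (0.191%), 32 higher (0.175%) and 3 lower (0.0164%), and from that in CD28 AYAA for 501 genes (2.74%), 425 higher (2.32%) and 76 lower (0.415%). At an unadjusted p under 0.05 the numbers were 1308 and 2782. The DKI count fell to 1 without CD28 KO 24 h number 1, 4 without CD28 KO 72 h number 1 and 10 without CD28 KO 72 h number 2, and to 16 to 22 without any 1 DKI library other than 24 h number 2. The CD28 AYAA count fell to 58, 94 and 239 without the same CD28 KO libraries, and to 301 to 321 without CD28 AYAA 24 h number 2 or 3 or 72 h number 1. DKI libraries are all of low depth. Libraries of both genotypes in a comparison were also thinned to the lowest total among them. Then 34 genes differed from DKI, 28 of them among the 35 above, 515 from CD28 AYAA and 6100 from WT. That total was 8.3 M against DKI, 15.7 M against CD28 AYAA and 10.1 M against WT, so depth was not equal across the comparisons.

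**Figure D5:**
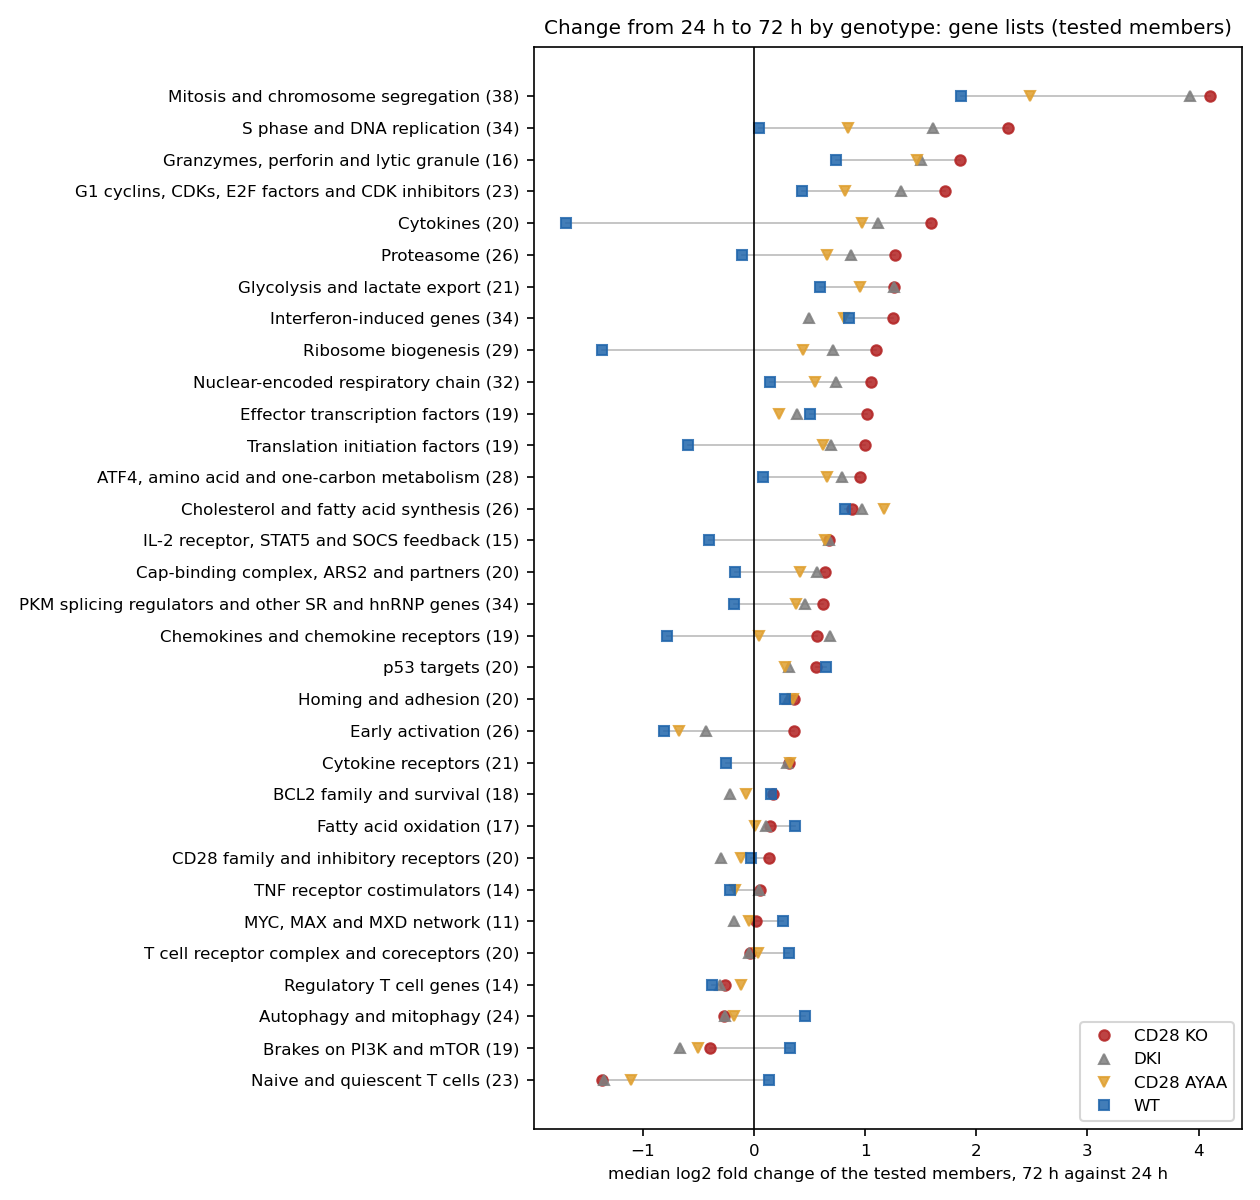
Median log2 change between 72 h and 24 h of the tested members of each process in CD28 KO, DKI, CD28 AYAA and WT. CD28 KO has the highest median in the DNA replication, mitosis, ribosome biogenesis, respiratory chain and proteasome lists, as in S phase genes with 2.28 for CD28 KO, 1.61 for DKI, 0.85 for CD28 AYAA and 0.04 for WT.

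Among genes that averaged 3 or more on the log2 CPM scale in CD28 KO, Irf4 and the interferon-induced Iigp1 had the largest excess in change over both DKI and CD28 AYAA. Of the 34 interferon-induced genes 6 had a higher change in CD28 KO than in DKI and 8 than in CD28 AYAA, and 0 a lower one. Among all genes the higher shares were 0.175% against DKI and 2.32% against CD28 AYAA. Without CD28 KO 24 h number 1 the only gene called against DKI was Irf4, which is not in this list. Irf4, a factor whose level follows the strength of antigen receptor signalling, had 89.1 and 62.1 CPM at 72 h and 64.7 and 48.4 CPM at 24 h in CD28 KO, where the times overlapped. DKI averaged 138 ± 3.86 CPM at 72 h and 546 ± 20.4 CPM at 24 h, and CD28 AYAA 105 ± 10.8 CPM at 72 h and 531 ± 113 CPM at 24 h (SD, n = 3 each). WT had 107 and 96.9 CPM at 72 h, against 724 and 931 CPM at 24 h. At 24 h CD28 KO was therefore far below the other 3 genotypes. The CD28 KO change exceeded that in DKI by 2.41 (SE 0.34, adjusted p = 0.00335) and that in CD28 AYAA by 2.75 (SE 0.34, adjusted p = 0.000158), and both calls held without any 1 library.

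Iigp1 averaged 245 ± 21.8 CPM at 72 h and 130 ± 59.9 CPM at 24 h in DKI, and 271 ± 13.7 CPM at 72 h and 186 ± 51.2 CPM at 24 h in CD28 AYAA (SD, n = 3 each). CD28 KO, DKI and CD28 AYAA lay close together at 72 h, and the CD28 KO libraries given above were lowest at 24 h. The excess was 2.31 (SE 0.40, adjusted p = 0.00882) over DKI and 2.68 (SE 0.40, adjusted p = 0.000803) over CD28 AYAA. Il12rb2 and Gbp2 exceeded the DKI change by 2.00 (SE 0.42) and 1.92 (SE 0.31), and Anxa2, an annexin of effector cells, by 2.11 (SE 0.38). These 4 DKI calls, and those of Flot2, Myo10 and Pxylp1 on the lower side, were each lost without at least 1 library. Myo10, an unconventional myosin, had 13 and 16.1 CPM at 72 h, against 50.5 and 46.8 CPM at 24 h, in CD28 KO, and averaged 19.1 ± 0.772 CPM at 72 h, against 17.2 ± 3.05 CPM at 24 h, in CD28 AYAA (SD, n = 3 each).

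More cell cycle genes passed the test against CD28 AYAA than against DKI. Of 34 DNA replication genes 24 changed more in CD28 KO than in CD28 AYAA, and of 38 mitotic genes 23, while 0 of either passed against DKI. Among all genes the higher shares were 2.32% and 0.175%. These list counts were not rerun under other settings. Over all genes, higher changes against CD28 AYAA fell from 425 to 51 without CD28 KO 24 h number 1. In a fit to only the groups compared 632 genes differed from DKI, against 35. Rrm2 averaged 340 ± 8.67 CPM at 72 h and 22.8 ± 2.09 CPM at 24 h in DKI, and 361 ± 3.96 CPM at 72 h and 81.2 ± 16.0 CPM at 24 h in CD28 AYAA (SD, n = 3 each). At 72 h the strains lay close together, and at 24 h CD28 AYAA stood above the others. Gzmb averaged 1870 ± 162 CPM at 72 h and 33.0 ± 9.82 CPM at 24 h in DKI, close to CD28 KO at both times. Slc7a11 averaged 7.52 ± 0.772 CPM at 72 h and 0.615 ± 0.165 CPM at 24 h in DKI, and 11.4 ± 2.70 CPM at 72 h and 0.565 ± 0.267 CPM at 24 h in CD28 AYAA (SD, n = 3 each), below both CD28 KO libraries at 72 h. The excess of its change in CD28 KO was 2.44 (SE 1.21, adjusted p = 0.714) over DKI and 1.72 (SE 1.04, adjusted p = 0.461) over CD28 AYAA, and neither passed.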

How the data were processed

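The table deposited by the authors holds expected counts, 1 row per gene and 1 column for each of 34 libraries, and 0 columns were left unused. The RNA, per the labels' protocols, was total RNA depleted of rRNA, and the paired reads from a NovaSeq instrument keep the strand through dUTP. The submitters' processing notes list bcl2fastq 2.20 with FastQC, STAR, RSEM and limma, and the builds mm10 and GRCm38. Neither the annotation release nor the filters or strand setting of counting are given in the sources used here, so reads of near-identical or antisense genes may be split or mixed. Between 83.7 and 90.8% of the values per library were whole. Of 48526 genes 48144 (99.2%) matched GENCODE M21, which gave symbols, and 71 genes that shared a symbol with a more abundant gene kept their identifier.

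Group and number in the column names gave the sample. The CD28 KO columns at 72 h are numbered otherwise than the sample titles, and were therefore tied to the group alone. Numbers printed for CD28 KO are those of the columns. The expected counts, once rounded, went into edgeR 4.0.16 (R 4.3.3) with the quasi-likelihood F test, TMM scaling, the default filter on low counts and 1 mean per group over all 34 libraries and 13 groups, which left 18292 genes. The common biological coefficient of variation was 0.163. A gene was called at a Benjamini-Hochberg adjusted p under 0.05 over all genes tested. The standard error is the log2 fold change divided by the square root of F. CPM values use TMM library sizes, except summed marker levels, which use total counts. The difference in change over time between genotypes was tested as an interaction in the same fit. The fit was tested on simulated data. Tables and plots came from Python 3.11.15 with pandas 2.3.3, matplotlib 3.10.9 and numpy 2.4.6.

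The gene lists, the tests and the named genes were chosen with earlier results of these data known. The naming rule took a fixed set of genes, the 10 largest changes per direction, the 5 largest per direction in each interaction and the 5 members of each list with the smallest p. Other members are named to complete a count, chosen once their values had been seen. Tried besides were RLE size factors, DESeq2 1.42.0, limma-voom 3.58.1, no filter, a fit to only the groups compared and protein-coding genes alone. Counts of the genotypes compared were also thinned to the lowest total among them. Further runs used a replicate block, WT number 1 or 4 alone, and each library left out in turn. A crossed block and sex as a term were added after seeing the data. Promoter windows are from RefSeq. Some genes that the naming rule took are not reported here.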

Additional observations from a re-analysis of the deposited data

Results flagged for a closer look

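The results below differed between genotypes by a test of the difference itself (edgeR's quasi-likelihood test of the interaction), and no group of 4 or more samples was available to screen CD28 KO for single outlying libraries. Between CD28 KO and WT, 6455 genes changed to a different degree. Here and below, the genes listed are those with the largest values among genes that averaged 3 or more on the log2 CPM scale in CD28 KO. The excess in CD28 KO was 8.59 for Lif, 5.95 for Lta, 5.42 for Slc7a11, 5.20 for Srxn1 and 5.07 for Gzmb on the log2 scale. The shortfall was -3.72 for Cnga1, -3.48 for Cd101, -3.46 for Ndrg1, -3.44 for Bambi-ps1 and -3.35 for Frat2.

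Between CD28 KO and DKI, 35 genes changed to a different degree. The excess in CD28 KO was 2.41 for Irf4, 2.31 for Iigp1, 2.11 for Anxa2, 2.00 for Il12rb2 and 1.92 for Gbp2. The 3 genes on the other side were Pxylp1 with -1.19, Myo10 with -1.10 and Flot2 with -0.76. Between CD28 KO and CD28 AYAA, 501 genes changed to a different degree. The excess in CD28 KO was 2.75 for Irf4, 2.68 for Iigp1, 2.60 for Gbp10, 2.58 for Il12rb2 and 2.44 for Pros1, and the shortfall was -1.90 for Myo10, -1.67 for Trib3, -1.46 for Mex3b, -1.40 for Cdc25b and -1.32 for Arhgap29. Trib3, a stress-induced pseudokinase, had 9.84 and 10.8 CPM at 72 h and 12.8 and 12.6 CPM at 24 h in CD28 KO, and averaged 15.9 ± 3.62 CPM at 72 h and 6.18 ± 0.898 CPM at 24 h in CD28 AYAA (SD, n = 3 each). Pros1, the anticoagulant protein S, had 29.0 and 21.7 CPM at 72 h and 2.93 and 7.93 CPM at 24 h in CD28 KO, and averaged 42.8 ± 5.86 CPM at 72 h and 50.4 ± 29.9 CPM at 24 h in CD28 AYAA (SD, n = 3 each). The calls of Gbp10, Pros1, Trib3, Mex3b, Cdc25b and Arhgap29 were each lost without at least 1 library.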

How the results depend on the processing

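The 8338 genes called between 72 h and 24 h in CD28 KO, and the 6455 whose change differed from WT, stayed within 1.5 times under every alternative run. The first numbered 7368 (protein-coding genes alone) to 9081 (only the groups compared), the second 4916 (WT number 4 alone) to 6633 (DESeq2). With 1 library left out they were 5950 to 6876 and 4710 to 6445, and list members called were 454 to 492, against 518 with all. The difference from DKI rests on the settings: 35 genes became 23 with RLE size factors, 93 with DESeq2, 19 with limma-voom, 81 without the filter on low counts and 632 in a fit to only the groups compared, and 1 to 31 with 1 library left out. The difference from CD28 AYAA became 783 genes with DESeq2 and 2049 in a fit to only the groups compared, against 501, and 58 to 474 with 1 library left out. The cause was not tested. The replicate block by column number gave 8228 genes, 514 list members and, against WT, 6503 genes. By Xist and Y-linked genes, same-numbered CD28 KO libraries of the 2 times were of opposite sex, so the CD28 KO block by number does not pair mice. Deviations of these same-numbered libraries correlated at -0.118 over 9382 genes. In WT, deviations of same-numbered libraries correlated at 0.566, and the main fit has no term for number. Crossed numbers, which match in sex, gave 8275 genes and 516 list members, and sex as a term 8380. Each value of a named gene was run under 13 to 19 settings. Of 228 called values 201 kept their call under every setting run for them, 27 lost it under at least 1, and none reversed. Srrt passed with DESeq2 (adjusted p = 0.0463), limma-voom (0.0391), no filter (0.012) and only the groups compared (0.000365). Il2, uncalled at -0.44, ranged from -0.94 to 0.21 with 1 library left out, and was above 0 without CD28 KO 24 h number 1. At a depth of 15.7 M and above, genes near 0 such as Il2 cannot be compared.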
